A study of Mus musculus with 2 samples.

Results

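The genes described here are 39 genes of the unfolded protein response and of the cytosolic heat shock response, measured in mouse small intestine. They were given by name, as regulators, chaperones, degradation factors and stress targets with well-known roles, and were found on the array as probe sets annotated to 1 gene symbol. All 39 were found, among 18194 genes with such a probe set. For each gene the probe set brightest on average was used, and its other probe sets served as a check. The study compared wild-type mice with mice carrying an IL-9 transgene, both on the BALB/c background, untreated and 6 to 8 weeks old. IL-9 is a cytokine of type 2 immunity that promotes the growth of mast cells. Total RNA of the small intestine from 3 mice was pooled in each group and hybridised to 1 Affymetrix array, so there are 2 arrays in all. The promoter and the tissue of expression of the transgene are not given in the labels. There were no replicates, so differences are given as measured, without a test and without an error between mice.

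The unfolded protein response adjusts the folding capacity of the endoplasmic reticulum (ER) to its load of secreted and membrane proteins. Its sensors are IRE1, PERK and ATF6: IRE1 splices the mRNA of the transcription factor XBP1, cleaved ATF6 and XBP1 act on the genes of ER chaperones and of ER-associated degradation, and PERK slows translation by phosphorylating eIF2-alpha, which lets ATF4 be made. Cytosolic chaperones respond separately, through the transcription factor HSF1. In the gut, the goblet, Paneth and plasma cells carry a heavy secretory load, and IRE1-beta (Ern2) is made in the gut epithelium. Splicing of Xbp1 mRNA, cleavage of ATF6 and phosphorylation are not measured by these arrays.

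The ER folding genes, the ATF4 branch and the cytosolic heat shock genes had median differences from -0.03 to 0.05 between the pools. Differences are on the log2(intensity + 1) scale, transgenic minus wild-type. All 39 genes passed the expression filter, an intensity of 78.5, on both arrays. The median difference was 0.04 over the 39 genes, with 22 above 0 and 17 below, beside 0.0083 over all 11862 genes past the filter, of which 51.4% lay above 0. The 15 ER folding genes (chaperones, co-chaperones and disulfide isomerases) had a median of -0.02, the 6 genes of the ATF4 branch 0.05 and the 6 cytosolic heat shock genes -0.03. The median of the folding genes minus that of the ATF4 branch was -0.07, and minus that of the heat shock genes 0.02. The sign of the first turned, to 0.02 when all probe sets of a gene were averaged and to 0.01 when probe sets were left out whose name ends in _s_at, _x_at or _a_at, a suffix for probes that match several transcripts. The folding median itself was 0.07 and 0.09 in these settings. The setting without suffixed probe sets covers fewer genes: 12 folding genes, without Hspa5, Hsp90b1 and Calr, and 5 of the ATF4 branch, without Trib3.

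Few individual genes reached 1.5-fold. At 2-fold, 0 of 39 genes were higher and 0 lower, where 0.607% of all genes past the filter were higher and 0.202% lower. At 1.5-fold, 2 were higher, Ssr4 and Chac1, and 1 was lower, Hsph1, where 1.68% of all genes were higher and 1.45% lower. In either direction these 3 are 7.69% of the 39, beside 3.13% of all genes. Among probe sets that target the same gene (4965 genes had several), the SD of the difference was 0.23, which covers technical spread within the arrays and not the variation among mice. The differences of 13 genes (33.3%) were larger than the SD of 0.23, as were those of 28.6% of all genes. For 26 of the 39 at least a second probe set passed the filter, and in 13 of these 26 every probe set lay on one side of 0, compared with 44.1% of all such genes. With 1 array per pool and 3 genes past 1.5-fold, nothing particular to the 39 is read from these shares.

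**Figure D1:**
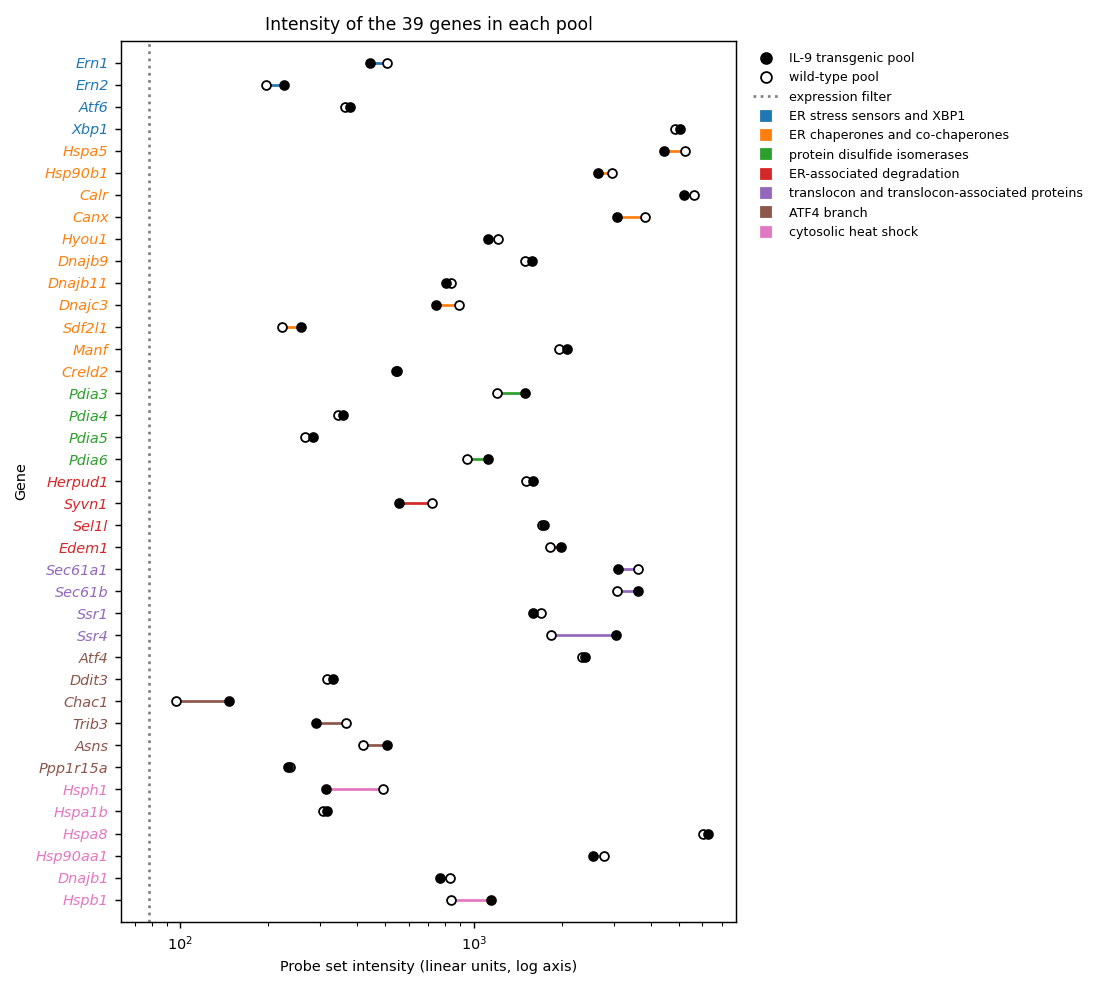
Intensity of the highest-mean probe set of each of the 39 genes (linear units on a log axis) in the IL-9 transgenic pool (filled) and the wild-type pool (open), coloured by role, with 1 array per pool and the expression filter dotted. The widest gaps are those of Ssr4, Hsph1 and Chac1, and the points of most other genes touch or nearly touch.

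The arrays as a whole differed in a few respects that bear on these values. The median intensity was 78.7 in transgenic and 78.3 in wild-type tissue. The ratio of the 3' to the 5' probe set, a sign of RNA integrity, was 1.33 for actin in transgenic and 1.61 in wild-type tissue, and 1.08 and 1.22 for Gapdh. Its part in the differences below was not tested. Epithelial markers were present in both pools: in the enterocyte list, 9 of 9 genes with a probe set passed the filter, and their summed intensity was 136968 in transgenic and 141919 in wild-type tissue. In whole tissue, a change in the number of cells of a type and a change in RNA per cell cannot be told apart.

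A sequence shared by several promoters of ER chaperones is the ER stress element, CCAAT and CCACG separated by 9 bases, which ATF6 binds together with NF-Y. RefSeq promoters of mouse assembly GRCm38.p6, from 250 bases before the transcription start to 50 bases from it, were listed for 32 of the 39 genes and searched on both strands. Of these, 8 held the element, against 39 of 32851 promoters in all (0.119%). The genes were listed as known targets of this response, so the share describes them and tests nothing. They belong to 6 of the 9 chaperones and co-chaperones with a listed promoter (Hspa5, Hsp90b1, Calr, Canx, Dnajc3 and Creld2), 1 disulfide isomerase (Pdia6) and 1 degradation gene (Syvn1). The promoters of the ATF4 branch and of the cytosolic heat shock genes in the table held 0. The 9 elements are printed in the direction in which the element reads, with the element in capitals and 10 bases on either side, because this shared structure is the basis of the comparison that follows.
Hspa5, chr2:34772015-34772053, plus strand: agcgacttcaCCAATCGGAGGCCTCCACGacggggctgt
Hsp90b1, chr10:86705628-86705666, minus strand: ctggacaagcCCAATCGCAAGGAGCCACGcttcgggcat
Hsp90b1, chr10:86705523-86705561, plus strand: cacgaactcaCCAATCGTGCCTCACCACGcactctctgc
Calr, chr8:84847065-84847103, plus strand: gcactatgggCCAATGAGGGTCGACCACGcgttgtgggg
Canx, chr11:50325790-50325828, minus strand: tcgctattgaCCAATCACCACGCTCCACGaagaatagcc
Dnajc3, chr14:118937817-118937855, plus strand: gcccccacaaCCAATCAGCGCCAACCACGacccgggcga
Creld2, chr15:88819510-88819548, minus strand: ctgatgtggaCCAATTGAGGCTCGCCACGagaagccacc
Pdia6, chr12:17266481-17266519, plus strand: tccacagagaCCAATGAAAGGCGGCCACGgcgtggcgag
Syvn1, chr19:6046522-6046560, plus strand: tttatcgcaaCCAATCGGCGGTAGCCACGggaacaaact

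In the Hspa5 gene, whose product BiP is the main HSP70 chaperone of the ER, the element lies from 65 to 47 bases before the start. The 250 bases before the start, chr2:34771840-34772089 on the plus strand, show it in capitals, within a promoter often used as the reporter of this response.
Hspa5: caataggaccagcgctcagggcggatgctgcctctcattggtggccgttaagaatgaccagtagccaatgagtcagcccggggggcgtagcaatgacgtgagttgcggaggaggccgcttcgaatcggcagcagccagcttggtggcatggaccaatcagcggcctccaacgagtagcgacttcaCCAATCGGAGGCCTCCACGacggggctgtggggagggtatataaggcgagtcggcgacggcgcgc

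Genes with this element had lower values in the transgenic pool by their highest-mean probe sets, but this depended on the probe sets. This comparison of differences by element was added after seeing the data. The 8 genes had a median of -0.20, with 7 below 0 and Pdia6 above it, while the 24 genes whose promoter lacked the element had a median of 0.06, with 7 below 0 and 17 above. With the mean over all probe sets the medians were -0.06 and 0.12, with 5 of 8 below 0. With only the probe sets that carry no such suffix they were -0.02 and 0.07, with 3 of 5 below 0. No single gene of the 8 reached 1.5-fold in any of the settings tried. Of the 8 genes, 6 are chaperones or co-chaperones, and most of the 8 have a suffixed highest-mean probe set. The part of role and of suffix in this comparison was not tested. Across all genes past the filter, 16 had the element, with 8 above and 8 below 0 and a median of 0.0043, so the 8 genes outside the 39 lay mostly on the other side (7 above 0, 1 below). The match is a description of the letters in this window only.

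**Figure D2:**
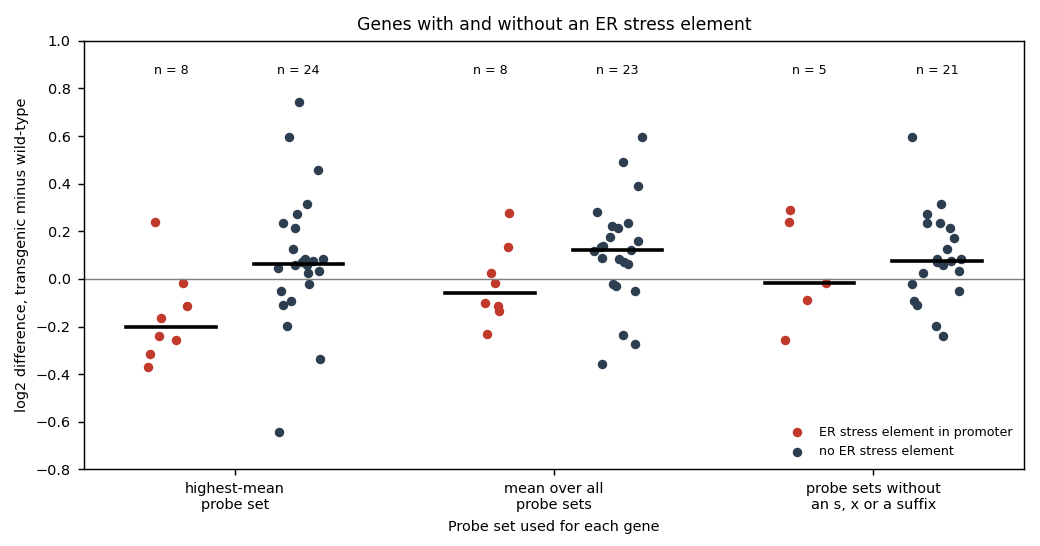
The log2 difference (transgenic minus wild-type) of genes with (red) and without (dark) an ER stress element in the promoter, each point 1 gene and each bar the median of its group, under 3 ways of choosing probe sets, a comparison added after seeing the data. The medians are -0.20 and 0.06 by the highest-mean probe set and draw closer, to -0.02 and 0.07, without the probe sets that carry a suffix.

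Among the sensors and regulators, the highest-mean probe sets all gave values within 0.20 of 0, while other probe sets reached 0.43. Ern2, which encodes IRE1-beta, read 226 in transgenic and 197 in wild-type tissue, a difference of 0.20 from its only probe set. Ern1, which encodes the widely expressed IRE1-alpha, read 442 and 507, a difference of -0.20, and its other probe sets past the filter gave -0.02 and 0.13. No direction is given for Ern1, and the difference of Ern2 was under the SD between probe sets. Atf6, the gene of the membrane-bound transcription factor cleaved under ER stress, read 378 and 364 (0.05), and its second probe set gave 0.32. Xbp1 read 5031 and 4832, a difference of 0.06. Its other 3 probe sets gave 0.43, 0.38 and -0.24, so no direction is given for Xbp1.

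The major chaperones of the ER lay a little below 0 by their brightest probe sets. Of the 11 chaperones and co-chaperones, 8 lay below 0 and 3 above, with a median of -0.11. The median was 0.03 with the mean over all probe sets. Without suffixed probe sets it was 0.08 over 8 genes, because Hspa5, Hsp90b1 and Calr have only suffixed probe sets and drop out. The group thus has no settled direction. Hspa5 read 4423 in transgenic and 5222 in wild-type tissue, a difference of -0.24. Its other probe sets gave -0.14 and -0.02, all on the same side. Calr, the gene of the lectin chaperone calreticulin, read 5183 and 5610 (-0.11), and its 3 probe sets ran from -0.17 to -0.06. These 2 were the only chaperone genes with several probe sets that all lay on one side of 0.

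For the other large chaperones the probe sets disagreed. Canx, the gene of the membrane-bound lectin chaperone calnexin, read 3060 and 3813, a difference of -0.32, while its probe sets ran to 0.29. Hsp90b1, the HSP90 of the ER (GRP94), read 2636 and 2956 (-0.17), against 0.43 from its second probe set. Hyou1, a large HSP70-like exchange factor, read 1119 and 1206 (-0.11), against 0.09 from its second. Dnajc3, the co-chaperone p58IPK that also restrains PERK, read 746 and 891 (-0.26), with 5 probe sets from -0.26 to 0.29. No direction is given for these 4 genes.

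The smaller, strongly inducible genes of the group each had 1 probe set. Sdf2l1, an ER protein that works with Dnajb11, read 258 in transgenic and 222 in wild-type tissue, a difference of 0.21. Manf, a secreted factor induced by ER stress, read 2074 and 1946 (0.09), and Dnajb9, a J-domain partner of BiP, read 1574 and 1498 (0.07). Creld2, an ER stress-inducible secreted factor, read 543 and 548 (-0.02), and Dnajb11, another J-domain partner of BiP, read 806 and 835 (-0.05). All 5 differences were under the SD between probe sets.

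The protein disulfide isomerases, which form and rearrange disulfide bonds of secreted proteins, all lay above 0. Pdia3 (ERp57), which works with calnexin and calreticulin on glycoproteins, read 1495 and 1202, a difference of 0.31. Pdia6 read 1122 and 950 (0.24), Pdia5 read 283 and 267 (0.08) and Pdia4 read 360 and 346 (0.06). Their median was 0.16, and the median of the chaperones and co-chaperones minus this one was -0.27. That value ran to -0.08 over the alternative settings without a change of sign. The -0.08 was found without suffixed probe sets, with 8 chaperones and co-chaperones. Of the 4 differences, 2 were under the SD of 0.23. Dimmer probe sets of Pdia3, Pdia4 and Pdia6 did not pass the filter and gave -0.19, 0.29 and 0.32. With its dimmer probe set averaged in, Pdia3 fell to 0.06.

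Other ER folding and redox genes outside the 39 lay on both sides of 0. Of 24 other ER folding and redox genes past the filter, 17 lay above 0, and 4 were higher by 1.5-fold and 0 lower. Their median was 0.12. Of all genes past the filter, 1.68% were higher by 1.5-fold and 1.45% lower. In this and the later lists a count of 0 lies near these shares. Fkbp11, a prolyl isomerase of secretory cells, read 147 and 88.4, a difference of 0.72. Prdx4, the ER peroxiredoxin, read 830 and 517 (0.68). Agr2, the disulfide isomerase needed for mucin folding, read 4343 and 2752 (0.66), and Txndc5, a thioredoxin-domain isomerase, 2499 and 1648 (0.60). The mean over all probe sets was 0.57 for Txndc5, 0.46 for Agr2, 0.26 for Prdx4 and 0.21 for Fkbp11, of which 1 probe set gave -0.08. Named here after their values were seen, P4hb, the main disulfide isomerase, read 9887 and 10338 (-0.06), and Tmx1, a membrane-bound thioredoxin-like protein, gave -0.31, the lowest of the list.

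Marker lists of secretory cells had medians above 0 in the same comparison, with members on both sides. The share of all genes past the filter that were higher by 1.5-fold was 1.68%. In the goblet cell list, which holds Agr2, 5 of 10 genes were higher by 1.5-fold and the median was 0.38, with the summed intensity at 93311 in transgenic and 82231 in wild-type tissue. Clca1, which goblet cells secrete, had a difference of 0.87, and the secretory lineage factors Atoh1 and Spdef differed by 0.85 and 0.84. Other goblet cell genes, named after their values were seen, did not follow: Muc2 differed by 0.09, Tff3 by -0.0043, Fcgbp by -0.15 and Zg16 by -0.22. In the plasma cell list, which holds Fkbp11, 2 of 10 were higher by 1.5-fold, the other being Mzb1 (0.60), and the median was 0.24, with Cd79a at -0.36 and Prdm1 at -0.04. Its summed intensity was 14243 and 12716. In the Paneth cell list 3 of 8 were higher by 1.5-fold, Ang4, Mptx1 and Clps, with a median of 0.36 and with Lyz1 at -0.25. Its summed intensity was 74638 and 54505. The part of these cells in the values of the isomerases and of Ssr4 was not tested.

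Among the translocon genes, Ssr4 had the largest difference of the 39. Ssr4 encodes the delta subunit of the translocon-associated protein complex, which helps nascent chains enter the ER. It read 3057 in transgenic and 1829 in wild-type tissue, a difference of 0.74 or 1.67-fold, at percentile 99.05 of all genes past the filter. The other 2 probe sets of Ssr4 gave 0.24 and 0.20, on the same side but under 1.5-fold, and the brightest one carries the suffix _s_at. Ssr1, the alpha subunit of the same complex, read 1591 and 1695 (-0.09), with probe sets from -0.09 to 0.02. Sec61b, the beta subunit of the translocation channel, read 3623 and 3078 (0.24). Sec61a1, the pore subunit, read 3087 and 3623 (-0.23), while its 6 probe sets were evenly divided, from -0.42 to 0.66, the widest range of any of the 39.

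Other genes of ER entry were spread on both sides of 0. Of 24 other ER entry and N-glycosylation genes past the filter, 15 lay above 0, 0 passed 1.5-fold and the median was 0.09. The largest differences were those of Sec61a2, the minor pore paralog (0.51), and Ddost, a subunit of the oligosaccharyltransferase (0.50). Of 26 ER-to-Golgi transport genes, 1 was higher by 1.5-fold and the median was 0.02. It was Kdelr3, a receptor that returns escaped ER chaperones, at 504 and 322 (0.64), with Sec13, a coat protein of ER exit vesicles, next at 0.44.

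The genes of ER-associated degradation, which removes misfolded proteins from the ER, differed in direction. Syvn1, the ubiquitin ligase HRD1, read 558 in transgenic and 722 in wild-type tissue, a difference of -0.37, and its second probe set gave -0.09. Sel1l, the partner of HRD1, read 1737 and 1707 (0.03), while all 5 of its probe sets lay above 0, up to 0.53, with a mean of 0.28. All probe sets of the ligase gene thus lay below 0 and all those of its partner above. Edem1, a mannosidase-like protein that marks glycoproteins for degradation, read 1977 and 1813 (0.12), and Herpud1, a membrane adaptor of the complex, 1594 and 1505 (0.08), each with its second probe set above 0 too. Of 17 other ER degradation genes past the filter, 12 lay below 0, 0 passed 1.5-fold and the median was -0.09. The largest differences were those of Selenos (-0.45), whose 3 probe sets all lay below 0, and Os9 (-0.40), and Selenok was as far above 0 (0.40), with its other probe set at -0.04. The median stayed below 0 in all 7 alternative settings.

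**Figure D3:**
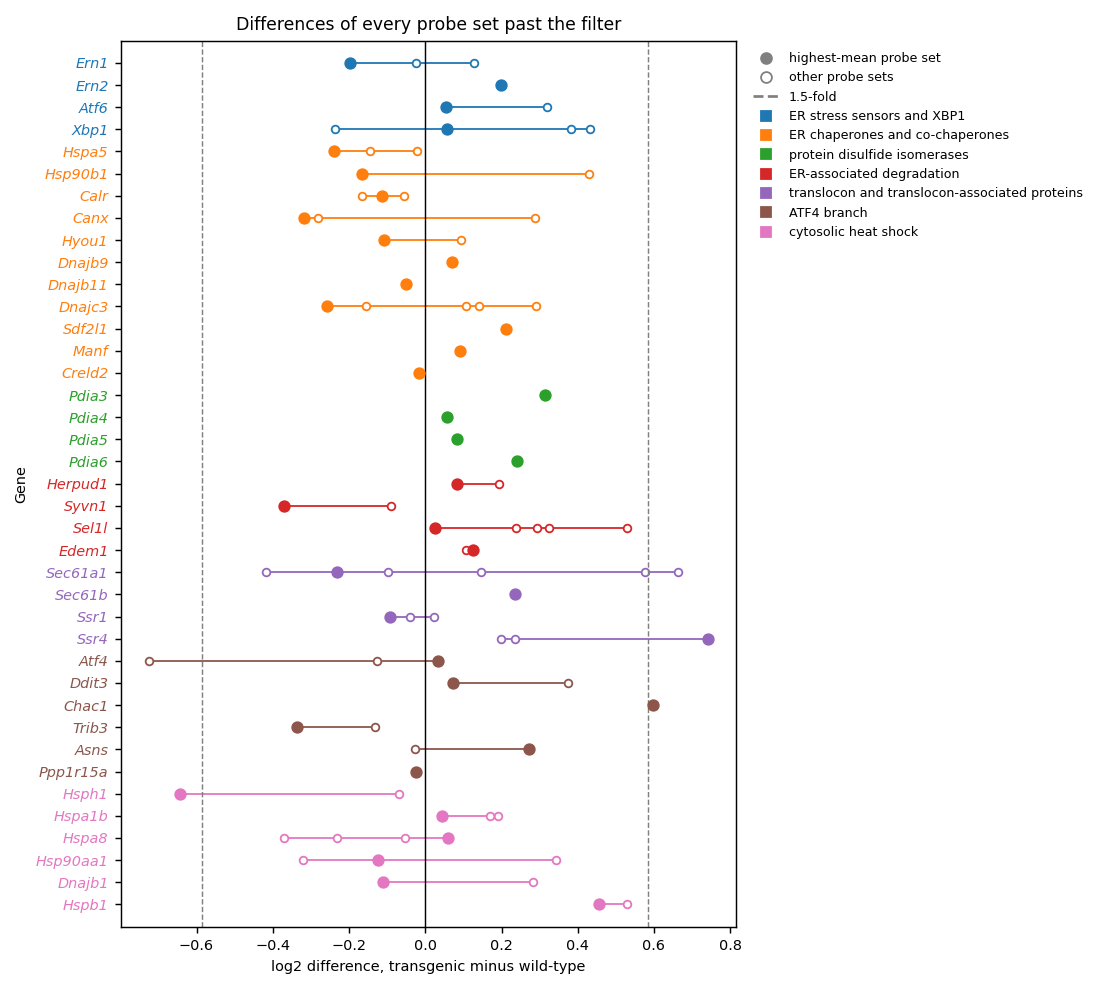
The log2 difference (transgenic minus wild-type) of every probe set past the filter for the 39 genes, with the highest-mean probe set filled and the others open, and 1.5-fold dashed. Hspa5, Calr, Syvn1, Sel1l, Ssr4, Trib3 and Hspb1 keep to one side of 0, while Sec61a1 runs from -0.42 to 0.66 and Atf4 from -0.72 to 0.03.

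Other sequence elements of the unfolded protein response were counted in the same promoters. The shorter form of the ER stress element, ATTGG and CCACG separated by 1 base, was searched after the other results were seen and was held by 2 of 32 genes, Herpud1 and Dnajb11, against 0.0365% of all promoters. The XBP1-type element TGACGTGG was held by 0 of 32 and by 0.676% of all promoters. CCACG alone was held by 24 of 32 and by 32.8% of all promoters, and its matches include those within the longer elements. The genes were listed for known roles in this response, so these shares describe them and test nothing. The match in Dnajb11 lies from 8 to 18 bases into the transcript and that in Herpud1 from 52 to 42 bases before the start.
Dnajb11, chr16:22857843-22857871, plus strand: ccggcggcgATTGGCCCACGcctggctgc
Herpud1, chr8:94386367-94386397, plus strand: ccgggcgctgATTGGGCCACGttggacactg

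In the ATF4 branch, single genes differed in both directions around a median of 0.05. Chac1, a glutathione-degrading enzyme and a strong ATF4 target, read 147 in transgenic and 96.9 in wild-type tissue, a difference of 0.60 or 1.51-fold from its only probe set. It passed 1.5-fold by a narrow margin and was at 0.47 with a pseudocount of 32. Asns, asparagine synthetase, read 506 and 419 (0.27), and its second probe set gave -0.03. Ddit3, the gene of the pro-apoptotic factor CHOP, read 332 and 316 (0.07), and its second probe set gave 0.37. Trib3, a pseudokinase induced by CHOP and ATF4, read 290 and 367, a difference of -0.34, with its second probe set at -0.13. Ppp1r15a, the gene of GADD34 that restores translation, read 233 and 237 (-0.02). The targets Chac1 and Trib3 thus differed in opposite directions.

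Atf4 itself, the transcription factor of the branch, had no settled direction. Its brightest probe set read 2384 and 2327, a difference of 0.03, its second 644 and 1065 (-0.72) and the dimmest 88.5 and 96.8 (-0.13). The second carries the suffix _x_at. ATF4 is controlled mainly through translation, which these values do not show.

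Promoters of this branch held the core of the amino acid response element, TGATG, 1 base and AA, the site of ATF4 with a C/EBP partner. It was found in 4 of 32 genes, against 3.97% of all promoters, and 3 of the 4, Chac1, Trib3 and Asns, belong to the 6 genes of the ATF4 branch. Their differences were 0.60, -0.34 and 0.27. The fourth, Herpud1, differed by 0.08. The ATF4 branch was listed for its known role in this response, so the share describes its genes and tests nothing. Each match is printed in the direction in which the element reads, with its core in capitals. That of Trib3 lies from 15 to 22 bases into the transcript, and the others lie before the start.
Herpud1, chr8:94386307-94386334, minus strand: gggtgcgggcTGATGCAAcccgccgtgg
Chac1, chr2:119351039-119351066, minus strand: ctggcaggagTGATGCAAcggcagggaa
Trib3, chr2:152344028-152344057, plus strand: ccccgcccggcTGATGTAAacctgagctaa
Asns, chr6:7693215-7693242, minus strand: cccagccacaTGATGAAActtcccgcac

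Beyond these genes, other ATF4 targets and integrated stress response genes were balanced around 0. Of 29 past the filter, 13 lay above 0 and 16 below, 0 passed 1.5-fold and the median was -0.02. The largest differences were those of Nupr1, a stress-induced chromatin protein (0.49, with both probe sets at 0.49), and Eif2ak2, the interferon-induced eIF2-alpha kinase PKR (0.36), whose probe sets reached -0.13. Among 15 other ER stress regulators the median was -0.07 and 0 passed 1.5-fold. Map3k5, the kinase ASK1, gave -0.55 and 0.27 in its other probe set, and Creb3l4, a membrane-bound transcription factor, 0.52, the latter past the filter through the transgenic pool alone.

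The cytosolic heat shock genes diverged, with one at either end. Hspb1, the small heat shock protein HSP25, read 1148 in transgenic and 837 in wild-type tissue, a difference of 0.46 or 1.37-fold, and its second probe set gave 0.53. Hsph1, the HSP110 exchange factor for HSP70, read 314 and 491, a difference of -0.64 or 1.56-fold lower. Its second probe set read 113 and 119 (-0.07), and the mean of both was -0.36, under 1.5-fold. The lower value of Hsph1 thus rests on 1 of its probe sets, and both probe sets of Hspb1 gave similar values.

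The main HSP70, HSP90 and HSP40 genes lay near 0. Hspa8, the constitutive HSC70, read 6256 and 6003 (0.06), with its 4 probe sets from -0.37 to 0.06. Hspa1b, an inducible HSP70, read 317 and 307 (0.04), with all 3 probe sets above 0, up to 0.19. Hspa1b and Hspa1a are near-identical copies, so their probe sets may share signal. Hspa1a, named here after its value was seen, gave -0.14. Hsp90aa1, the inducible HSP90, read 2554 and 2784 (-0.12), with probe sets from -0.32 to 0.34. Dnajb1, the HSP40 partner of HSP70, read 766 and 827 (-0.11), against 0.28 from its second probe set. No direction is given for Hspa8, Hsp90aa1 and Dnajb1.

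The heat shock element was searched as GAA, TTC and GAA, each separated by 2 bases. It was found in 1 of 32 genes, Hsph1, against 0.603% of all promoters. Only exact matches within the window were counted, and the genes were listed by role, so the share tests nothing. Of the 6 cytosolic heat shock genes 4 had a listed promoter, and Hspa8 and Hsp90aa1 were not searched. RefSeq lists 2 starts for Hsph1, and the element lies from 16 to 28 bases into the transcript of one and from 37 to 49 bases into that of the other. It is printed with the element in capitals.
Hsph1, chr5:149636280-149636308, plus strand: actgaggaGAACTTTCCAGAAtctgcagc

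The wider heat shock list was also balanced around 0. Of 27 other cytosolic heat shock genes past the filter, 13 lay above 0 and 14 below, 0 passed 1.5-fold and the median was -0.0094. The largest differences were those of Hspb8, a small heat shock protein (-0.56, with 1 of its 3 probe sets at 0.02), and Chordc1, a co-chaperone of HSP90 (-0.43). Genes of the handling response of fresh tissue, such as Fos and Jun, were given for comparison: 8 of 11 past the filter lay below 0, with a median of -0.09, 0 past 1.5-fold, -0.51 in Socs3 and -0.49 in Jun. Its summed intensity was 7886 in transgenic and 8994 in wild-type tissue, and its part in the values of the heat shock genes was not tested. In the smooth muscle list, another source of small heat shock proteins, the median was 0.05 and 0 of 8 passed 1.5-fold.

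Mitochondrial chaperones and proteases, which form a further compartment of the same families, lay mostly above 0. Of 11 past the filter, 9 lay above 0, 0 passed 1.5-fold and the median was 0.11. The largest differences were those of Grpel1, the exchange factor of the mitochondrial HSP70 (0.40), and Clpp, a matrix protease (0.37, with its other probe set at -0.12). Across the compartments the HSP70 genes gave -0.24 in the ER (Hspa5), 0.06 in the cytosol (Hspa8) and -0.25 in mitochondria (Hspa9), the last named after its value was seen. The 5 probe sets of Hspa9 ran from -0.25 to 0.30.

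**Figure D4:**
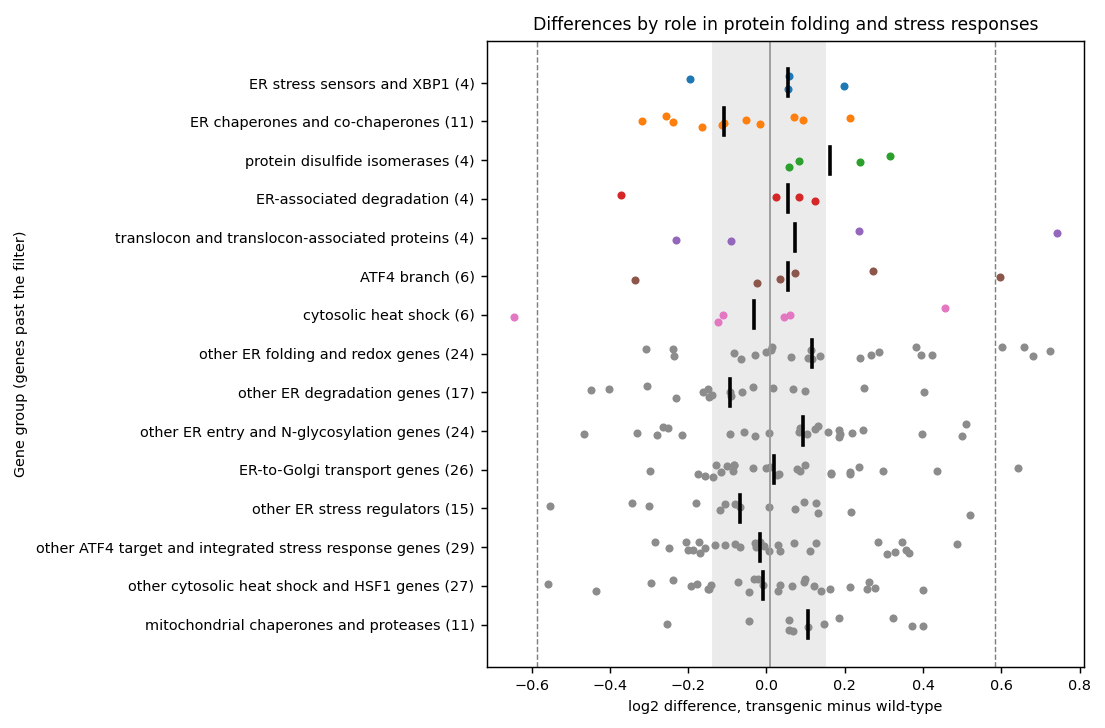
The log2 difference (transgenic minus wild-type) of each gene past the filter, by role, with the 39 genes in colour, other genes of the pathways in grey, group medians as black bars and the interquartile range of all genes shaded. The medians lie between -0.11 and 0.16, and the points past 1.5-fold (dashed) are those of Ssr4, Chac1 and Hsph1 among the 39 and of Fkbp11, Prdx4, Agr2, Txndc5 and Kdelr3 among the others.

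Among the marker lists of other cell types, single genes differed by more than any of the 39. Of the mast cell genes, Mcpt2 differed by 2.89 and Mcpt1 by 2.77, of the tuft cell genes Rgs13 by 2.49 and of the B cell genes Ms4a1 by -1.73. Other members, named after their values were seen, did not follow. In the mast cell list Hdc gave -0.19, Cma1 0.18 and Gata2 0.24, and in the tuft cell list Pou2f3 gave 0.17. Of the genes past the filter, 6 of 8 in the mast cell list, 3 of 8 in the tuft cell list and 3 of 6 in the B cell list passed on both arrays. The others passed only through the pool in which they were high, so no median is given for these lists. Rgs13 (61.7 in wild-type tissue) and Ms4a1 (74.9 in transgenic tissue) are among these others, while Mcpt1 and Mcpt2 passed on both arrays. In the exocrine pancreas list, Pnliprp1 (2.44) and Pnliprp2 (2.28) were higher by 1.5-fold, the other 5 of 7 lay from -0.08 to 0.11, and the median was 0.07. The enterocyte list had a median of -0.09 with 0 of 9 past 1.5-fold. The part of these cell types in the values of the 39 genes was not tested.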

How the data were processed

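The deposited values are probe set intensities on a linear scale, 1 column per pool. RMA, which corrects background, equalises array distributions and summarises probes, is named in the submitters' processing notes; the deposited intensities come without replicates or detection calls, and RMA can hide a shift common to most genes. The sources used here do not name the authors' genome build or chip annotation. Samples were grouped by the source in the labels.

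Gene names came from the platform annotation: of 45101 probe sets, 34958 had 1 symbol, 932 several and 9211 none. Values were log2(intensity + 1), and the expression filter asked that the higher of both values reach the median of all values, 6.31. No test was possible with 1 array per group, and calls at 1.5-fold and 2-fold are descriptions. The 39 genes, their 7 roles, 8 pathway lists and 10 marker lists were chosen with earlier results of these data known. Named genes are the 39, and from each list up to 4 genes past 1.5-fold or else the 2 largest in size. Promoters came from RefSeq (GRCm38.p6), and an entry was listed for 32 of 39 genes. A protein table was not used here. Scripts used Python 3.11.15 with pandas 2.3.3 and were tested on simulated data. The 7 alternatives were the mean over probe sets, only probe sets without _s_at, _x_at or _a_at, pseudocounts of 0 and 32, quantile normalization, no filter and a filter at the 75th percentile.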

Additional observations from a re-analysis of the deposited data

How the results depend on the processing

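No paired analysis was possible because each group has 1 array. Under the 7 alternatives 263 values of single genes were recomputed. Of these, 249 moved by less than the SD of 0.23 between probe sets and 14 by more. All 14 arose with the mean over probe sets or without suffixed ones. A change of the filter cannot change the difference of a gene, so the 249 are no measure of stability. Of the genes past 1.5-fold, 0 changed sign. Of the 39 genes, 19 lay above 0 and 10 below in each setting that gave a value, and 10 had both signs. The number of genes higher by 1.5-fold was 2 and became 1 with the mean over probe sets, with only probe sets without a suffix, with a pseudocount of 32, under quantile normalization and with a filter at the 75th percentile. Chac1 alone was left in the first pair of settings and in the others was the gene lost, by dimness or by its margin. The number lower by 1.5-fold was 1 and became 0 with the mean over probe sets and without suffixed probe sets, where Hsph1 had no value. Without suffixed probe sets 3 genes with an ER stress element lay below 0, of 5 with such a probe set, in place of 7 of 8; the ER stress element comparison, in the main setting and the alternatives, was added after seeing the data. The median of the chaperones ran from -0.11 to 0.08, that of the ATF4 branch from 0.05 to 0.07 and that of the heat shock genes from -0.04 to 0.06. The upper ends come from the setting without suffixed probe sets, which covers fewer genes. It holds 8 chaperones, 5 genes of the ATF4 branch (without Trib3) and 4 heat shock genes (without Hsph1 and Hspb1). The folding median minus that of the ATF4 branch, -0.07, was 0.02 with the mean over probe sets and 0.01 without suffixed ones. Beside the chaperones and the ER folding genes, group medians changed sign only with the choice of probe sets. With the mean over probe sets these were the ER-to-Golgi genes (-0.04), the other ER stress regulators (0.0053) and the other ATF4 targets (0.0019). Without suffixed probe sets they were the sensors (-0.07), the heat shock genes (0.06) and the other heat shock genes (0.03).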

Other observations

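The probe sets of the 39 genes differed with the kind of probe set. Of their 88 probe sets past the filter, the 40 with _s_at, _x_at or _a_at in the name, which can match several transcripts, had a median difference of -0.06 (17 above 0, 23 below), and the other 48 had 0.09 (33 above, 15 below). Over all probe sets past the filter the medians were 0.0084 and 0.0063. Most highest-mean probe sets of the large chaperones are of the first kind, and the cause of the gap was not tested.

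Genes of the 39 lay among the brighter genes of the array, 11 of them at a mean log2 intensity of 11 or over. In that range 3.08% of all genes passed 1.5-fold and the median difference was -0.01, beside 2.94% and 0.03 for genes under 7.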
